A study of Mus musculus with 6 samples.

Results

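Tescalcin and 7 S100 proteins are small calcium-binding proteins built on the EF-hand, a helix-loop-helix fold that holds a calcium ion. Their genes are Tesc, S100a1, S100a4, S100a6, S100a10, S100a11, S100a13 and S100b, and they were taken by symbol as 8 of the 23038 gene rows listed for every library. Because some of them were chosen with their difference between the groups of this experiment already known, their differences are given as a description without p-values, and any count of them called stands only beside the share called over all genes. The cells were NSC-34, a mouse line that is a hybrid of neuroblastoma and embryonic spinal cord cells, grown in both groups in medium with 10% serum. The siNC group (3 libraries) was transfected with control siRNA and the siQk group (3 libraries) with siRNA against Qk, the gene of the RNA-binding protein Quaking, and RNA was taken 72 h later. The study used 3 different siRNAs against Qk, and which siQk library received which is not given in the labels. Per the methods of the study, the libraries of a group are from separate cultures.

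S100 proteins are mostly dimers that open a binding surface when calcium enters the cell and then hold on to a partner protein. S100a10 is the exception, since it no longer binds calcium and keeps its binding surface exposed. The genes of most S100 proteins lie in a single cluster, and different members mark different cell types, S100b being the classical marker of astrocytes. Tescalcin belongs to the calcineurin B homologous proteins.

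Of the 8 genes, 6 passed the expression filter used for testing (mean log2 CPM above 0, CPM being counts scaled to library size), and S100a11 and S100b did not. All 6 had a lower mean in siQk than in siNC, and for 4 of them, Tesc, S100a1, S100a6 and S100a13, the libraries of the 2 groups did not overlap. Over all 12665 genes tested, groups did not overlap for 8.84%, with siQk lower for 3.49%. A log2 fold change below 0 was found for 49.2%, and these shares are given beside the counts without reading anything from them. None of the 8 was called changed in the edgeR quasi-likelihood test, with 366 of all genes at an unadjusted p under 0.05 (2.89% of those tested, 1.69% lower and 1.2% higher). The call, p under 0.01 with an adjusted p under 0.1, was met by 0.0079% of the genes tested, which is Qk alone. DESeq2, which called 0.15% of the genes, included Tesc and S100a1 among its 19, from the contrast that was known when the genes were chosen.

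The promoters of the genes that were lower in all siQk libraries are shown first, as RefSeq gives them for the build GRCm38.p6. The RefSeq table held 7 of the 8 genes and had no entry for S100a10. Each window runs from 250 bases before the transcription start to 50 bases after it. S100a1 and S100a13 are transcribed away from each other and share a promoter region, with starts at 90514330 on the minus strand and 90514435 on the plus strand of chromosome 3. These RefSeq starts lie 105 bases apart, and a minus-strand start within 200 bases upstream was found for 6.55% of 13572 plus-strand genes. In the GENCODE gene models, which give the gene coordinates further on, the distance is 43 bases. The window below is chr3:90514185-90514484 on the plus strand, and its capitals mark the bases from one RefSeq start to the other.
S100a1 and S100a13: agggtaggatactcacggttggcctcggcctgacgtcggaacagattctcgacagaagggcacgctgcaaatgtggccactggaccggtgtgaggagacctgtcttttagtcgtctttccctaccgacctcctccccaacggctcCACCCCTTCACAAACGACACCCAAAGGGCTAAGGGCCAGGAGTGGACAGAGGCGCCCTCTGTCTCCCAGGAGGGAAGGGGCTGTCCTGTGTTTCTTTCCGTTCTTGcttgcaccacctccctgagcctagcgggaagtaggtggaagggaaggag

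Tesc has a promoter of high GC content, 74.7%, which is higher than in 96.1% of all promoters, with 36 CpG dinucleotides. Its window, chr5:118027493-118027792 on the plus strand, holds 2 copies of the GC box (GGGCGG on either strand), which are in capitals.
Tesc: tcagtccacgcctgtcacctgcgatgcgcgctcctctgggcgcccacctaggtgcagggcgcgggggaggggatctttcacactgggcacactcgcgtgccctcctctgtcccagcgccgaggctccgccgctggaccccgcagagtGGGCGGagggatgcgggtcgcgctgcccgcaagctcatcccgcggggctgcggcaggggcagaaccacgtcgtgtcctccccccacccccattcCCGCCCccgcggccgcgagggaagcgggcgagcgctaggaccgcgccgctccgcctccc

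S100a6, the most abundant of the 8 genes, has a promoter with 49.3% GC at chr3:90612644-90612943 on the plus strand. Capitals mark a CCAAT box in reverse (ATTGG) at position -228 and an E-box (CACGTG) at position 15, counted from the start.
S100a6: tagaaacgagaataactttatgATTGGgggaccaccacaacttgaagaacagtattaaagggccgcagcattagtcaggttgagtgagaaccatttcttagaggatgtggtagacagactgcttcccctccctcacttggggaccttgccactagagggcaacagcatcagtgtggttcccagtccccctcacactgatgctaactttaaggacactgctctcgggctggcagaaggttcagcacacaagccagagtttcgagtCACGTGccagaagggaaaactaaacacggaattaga

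Each motif was searched on both strands, and none is part of another. Of 27025 promoters of this length, 14.2% hold a TATA box (searched as TATAAA) and 37.9% a CCAAT box. The E-box was found in 7.24%, the GC box in 35.9%, and the AP-1 site, searched as either TGAGTCA or its variant with C in the middle (TGACTCA), in 5.17%. The shared S100a1 and S100a13 windows hold none of the 5. The S100a4 window has a TATA box at -31, and that of S100b has a CCAAT box at -202 and one in reverse at -20. The S100a11 window holds the most, 3 GC boxes, 2 AP-1 sites at -136 and -38, and an E-box at -223. A match is a description of the letters and not evidence of binding.

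Levels are in RPKM, reads scaled to exon length and library size. Qk itself, the siRNA target, ranged from 8.18 to 14.9 RPKM in siNC and from 1.10 to 1.71 RPKM in siQk. All libraries thus lay on the side of their label, and the knockdown was -3.0 on the log2 scale (SE 0.34; edgeR quasi-likelihood, adjusted p 0.0149). Libraries held 43000503 to 53565950 counts, with a count for 16057 to 16516 genes. On principal components siQk replicate 2 stood apart on the first (41.2% of the variance) and siNC replicate 3 on the second (28.9%). Of the motor neuron markers, Chat was at most 0.141 RPKM and Mnx1 at most 0.0944 RPKM, while Isl2 had 2.65 to 4.96 RPKM and Slc18a3 1.56 to 2.29 RPKM. Isl1 had 4.75 to 4.83 RPKM in siNC and 7.80 to 9.63 RPKM in siQk, a log2 fold change of 0.82 (SE 0.10) that only DESeq2 called among the tests run. Slc5a7 was at most 0.0238 RPKM. The 10 neuron and neuroblastoma markers summed to 438 to 738 RPKM in siNC and 551 to 681 RPKM in siQk, with 2 of the 9 tested lower, 7 higher and none called. The summed level of the 8 motor neuron markers was 10.3 to 11.9 RPKM in siNC and 14.8 to 17.3 RPKM in siQk, and their part in the results was not tested. Of these markers 4 passed the filter, 1 lower and 3 higher, and none was called by edgeR quasi-likelihood.

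The 8 genes differed in level by over 3 orders of magnitude. By mean RPKM, which is per exon length, they were ordered S100a6, S100a10, S100a13, Tesc, S100a1, S100a4, S100b and S100a11. The order was the same in both groups, with medians in place of means and with another scaling. Within each group the libraries of each gene in this order lay above those of the next without overlap, down to S100a11. These levels are those of bulk RNA, in which fewer expressing cells and less RNA per cell cannot be told apart.

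**Figure D1:**
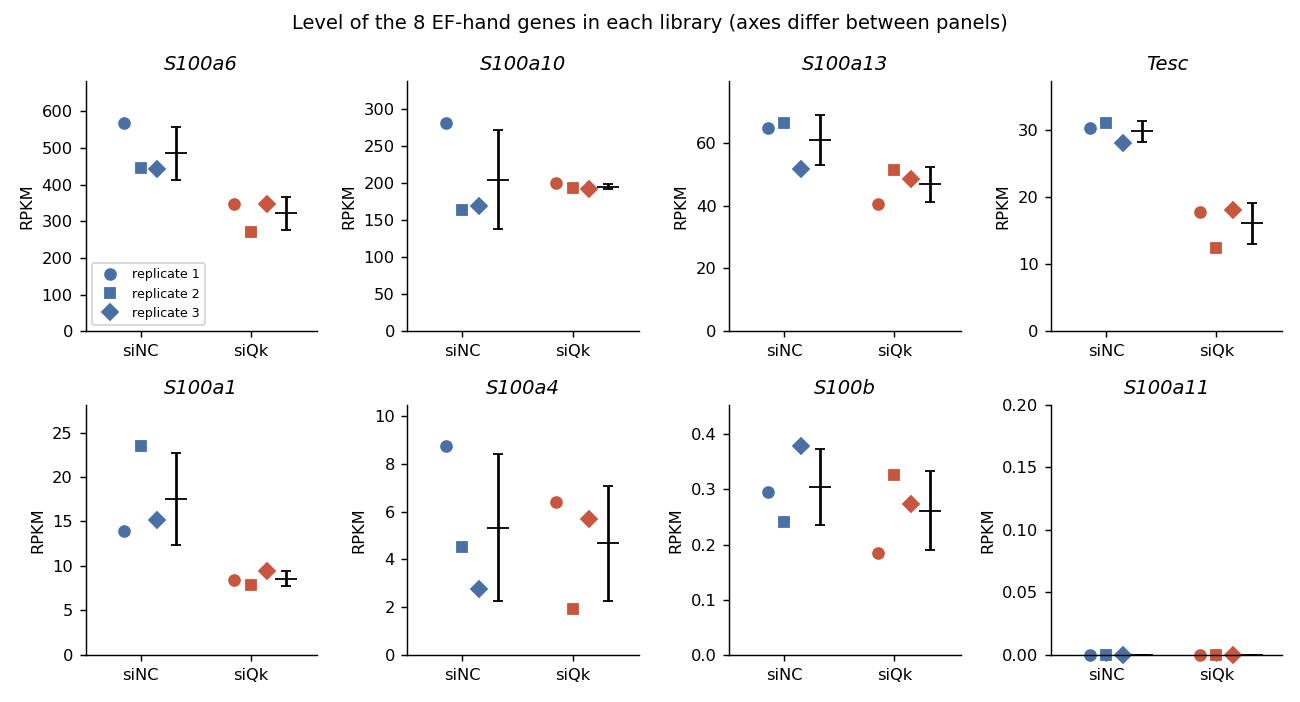
Level of the 8 genes in RPKM (vertical axes, from 0 and different in each panel) in the 3 siNC (blue) and 3 siQk (red) libraries, with the mean and SD in black. The siQk points lie below every siNC point for S100a6, S100a13, Tesc and S100a1, overlap them for S100a10, S100a4 and S100b, and S100a11 lies at 0 in all 6 libraries.

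Tesc (Entrez 57816, GRCm38 chromosome 5, 118027743 to 118061878, plus strand) encodes tescalcin. Its level was 30.3, 31.1 and 28.1 RPKM in the siNC replicates (1, 2 and 3, as for the genes that follow) and 17.7, 12.5 and 18.03 RPKM in the siQk replicates. The siNC libraries were close to one another and all above the siQk libraries, of which replicate 2 was lowest. The means were 29.9 ± 1.57 and 16.1 ± 3.11 RPKM (SD, n = 3), so that siQk had 53.9% of the siNC level. The log2 fold change was -0.92 (SE 0.18), resting on 761 to 1757 counts a library, and -0.76 without siQk replicate 2.

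S100a1 (Entrez 20193, chromosome 3, 90511034 to 90514392, minus strand), known in muscle and neurons as a regulator of ryanodine receptors, had a similar ratio between the groups. Its level was 13.97, 23.4 and 15.1 RPKM in the siNC replicates and 8.42, 7.81 and 9.49 RPKM in the siQk replicates. The siQk libraries were close together, whereas siNC replicate 2 stood above the other siNC libraries. The means were 17.5 ± 5.16 and 8.58 ± 0.846 RPKM (SD, n = 3), with siQk at 49.0% of siNC and a log2 fold change of -1.05 (SE 0.23). Without siNC replicate 2 it was -0.82, and without siQk replicate 2 it was -0.99.

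S100a13 (Entrez 20196, chromosome 3, 90514435 to 90524581, plus strand), which takes part in the export of the growth factor Fgf1, is read from the other side of the same promoter region. It had 64.8, 66.4 and 51.7 RPKM in siNC and 40.6, 51.3 and 48.4 RPKM in siQk. The groups lay next to each other, with siNC replicate 3 just above siQk replicate 2. The log2 fold change was -0.40 (SE 0.13), with siQk at 76.7% of siNC. The ratio of S100a1 to S100a13 was 0.216 to 0.353 in siNC and 0.152 to 0.208 in siQk, so within every siQk library S100a1 made up less of the pair than in any siNC library. Whether that ratio differs was not tested, since both genes belong to a set chosen with this contrast known.

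S100a6 (Entrez 20200, chromosome 3, 90612882 to 90624181, plus strand), also called calcyclin, was the most abundant, in place 98 of all genes by mean RPKM. Its level was 569, 444 and 443 RPKM in the siNC replicates and 348, 269 and 347 RPKM in the siQk replicates. All siNC libraries were higher, siNC replicate 1 most of all, and siQk replicate 2 was again lowest. The means were 485 ± 72.3 and 322 ± 45.2 RPKM (SD, n = 3), siQk having 66.3% of siNC, and the log2 fold change was -0.62 (SE 0.17). It was -0.49 without siNC replicate 1 and -0.51 without siQk replicate 2.

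S100a10 (Entrez 20194, chromosome 3, 93555080 to 93564643, plus strand), the light chain that binds annexin A2 and carries channels to the membrane, did not follow. It had 281, 163 and 170 RPKM in siNC and 199, 194 and 192 RPKM in siQk. The siQk libraries were nearly level, with a spread of 1.91% of their mean against 32.5% in siNC, where replicate 1 was high. The log2 fold change of -0.09 (SE 0.25) was within the error and turned to 0.20 without siNC replicate 1.

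S100a4 (Entrez 20198, chromosome 3, 90603771 to 90606045, plus strand), which binds nonmuscle myosin and is known from motile and fibroblast-like cells, varied most between libraries. Its level was 8.74, 4.53 and 2.75 RPKM in siNC and 6.42, 1.91 and 5.69 RPKM in siQk. The groups overlapped in part, with siNC replicate 1 above and siQk replicate 2 below all libraries of the other group, and the highest library had over 3 times the lowest within each group. The log2 fold change of -0.21 (SE 0.71) turned to 0.34 without siNC replicate 1 and to 0.16 without siQk replicate 2. A gene annotated in GENCODE, Gm42674, overlaps the exons of S100a4, and 53.8% of the 75-base stretches of S100a4 also occur there. Gm42674 is not among the genes counted. Which gene such reads came from was not tested, so the S100a4 counts are uncertain to that extent.

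S100b (Entrez 20203, chromosome 10, 76253853 to 76261159, plus strand) was low and did not pass the filter. It had 25, 19 and 27 counts in the siNC libraries and 14, 29 and 21 counts in the siQk libraries, or 0.185 to 0.378 RPKM. The groups overlapped. Other astrocyte genes were as low, with Gfap at most 0.101 RPKM and Aqp4 at 0 counts in all 6 libraries. The 5 astrocyte markers summed to 1.53 to 2.21 RPKM in siNC and 1.94 to 2.52 RPKM in siQk, nearly all of it from the glutamate transporter gene Slc1a2.

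S100a11 (Entrez 20195, chromosome 3, 93520488 to 93526287, plus strand), a partner of annexin A1, had 0 counts in every library. A count of 0 allows up to 3 counts, which for this gene is 0.111 to 0.138 RPKM, for counting error only. Its neighbour S100a10, 29 kb away, had 4738 to 9311 counts a library. Of the 75-base stretches of S100a11, 37.8% also occur in the annotated genes Gm12854 and Gm7665. Whether the 0 reflects the level of the RNA or the annotation and mapping behind the counts was not tested, and the limit above holds only in the first case. Anxa1 was at 0 RPKM in 5 libraries and at 0.0699 RPKM in siQk replicate 2.

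Looking across libraries rather than genes, siQk replicate 2 was the lowest library for 4 of the 6 genes above the filter, Tesc, S100a1, S100a4 and S100a6. The median of the 6 relative to the siNC mean, on the log2 scale, was between -0.15 and 0.16 in the siNC libraries, which lie near 0 by construction. This median was -0.55 in siQk replicate 1, -1.01 in replicate 2 and -0.41 in replicate 3. The siQk values restate the fold changes above and are no separate evidence. The part of siQk replicate 2 in these values was not tested beyond leaving it out. The median fold change of the 6 genes was then -0.49, against -0.51 with all libraries. Some of these genes were chosen on this contrast, so their medians are a description and not support. Over all genes the median log2 fold change was 0.0034.

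**Figure D2:**
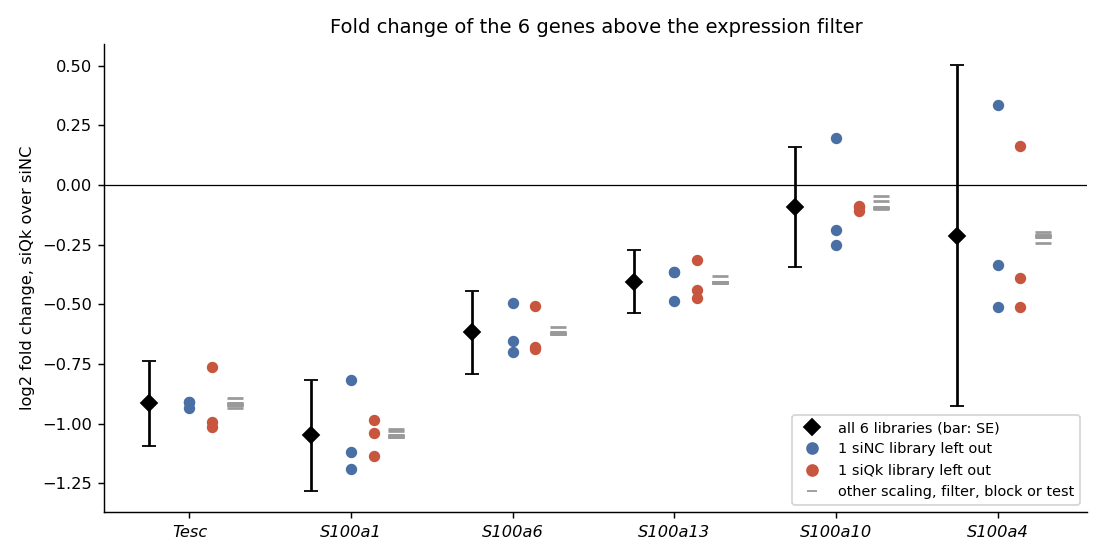
Log2 fold change of siQk over siNC for the 6 genes above the expression filter with all 6 libraries (black, bar for the SE), with 1 siNC (blue) or 1 siQk (red) library left out, and with another scaling, filter, block or test (grey). Tesc, S100a1, S100a6 and S100a13 stay below 0 throughout, whereas S100a10 and S100a4 cross it when siNC replicate 1 is left out and S100a4 also without siQk replicate 2. The groups of Tesc, S100a1, S100a6 and S100a13 did not overlap, so leaving out 1 library could hardly turn their sign.

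The S100 genes together, 17 symbols in the files, summed to 695 to 952 RPKM in siNC and 528 to 616 RPKM in siQk. S100a6 and S100a10 made up 84.8% to 89.3% of this sum in siNC and 87.7% to 88.9% in siQk. Within the pair, S100a6 was 2.02 to 2.72 times S100a10 in siNC and 1.39 to 1.81 times in siQk. The share of S100a6 in the whole family was 59.7% to 63.7% and 51.0% to 56.6%. These ranges follow from the levels above and are no separate evidence.

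The other S100 genes were low. Of 9 listed, 3 (S100a5, S100g and S100z) had no count, 2 more were below the filter and 4 were tested. None of the 4 was called (edgeR quasi-likelihood, adjusted p 0.9996). S100a7a, with 22 to 39 counts in the siQk libraries, and S100a16, with 10 to 66, passed the filter through their siNC libraries, and S100a7a fell below it without siNC replicate 3 and S100a16 without siNC replicate 1. Their negative fold changes are favoured by that filter, so no count or median of the 4 is given as support. S100a7a, a relative of psoriasin, had 1.11, 2.19 and 3.55 RPKM in siNC and 1.15, 0.554 and 1.02 RPKM in siQk, a log2 fold change of -1.36 (SE 0.58), which the filter favours. S100a14 had 6.69, 4.86 and 3.35 RPKM in siNC and 4.03, 0.597 and 3.95 RPKM in siQk, and S100a16 had 1.64, 1.38 and 0.717 RPKM against 1.31, 0.169 and 0.570 RPKM. In all 3 genes siQk replicate 2 was the lowest library and the groups overlapped. Without siQk replicate 2 the log2 fold change of S100a14 went from -0.82 to -0.34 and that of S100a16 from -0.89 to -0.42.

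On the chromosome, S100a1, S100a13, S100a4 and S100a6 lie in an S100 cluster of 185 kb, whereas S100a11 and S100a10 lie 2825 kb beyond it. Within 100 kb of the cluster's genes 9 other genes were tested, of which 7 had negative and 2 positive fold changes, and none had groups that did not overlap. The 7 include S100a7a and S100a16, whose sign the filter favours. The nearest genes outside the family, on the side of S100a1, had fold changes within 1 SE of 0. 2500003M10Rik had a log2 fold change of 0.06 (SE 0.09), Snapin, a binding partner of SNARE proteins, -0.16 (SE 0.25), and Ilf2, an RNA-binding protein gene, -0.03 (SE 0.13). Around Tesc, the ubiquitin ligase subunit genes Fbxw8 and Fbxo21 lay on opposite sides, at -0.35 (SE 0.18) and 0.15 (SE 0.05). Both had groups that did not overlap, as did 8.84% of all genes tested, and neither was called (edgeR adjusted p 0.9996). Nos1, the other gene tested there, was at 0.07 (SE 0.83) with overlapping groups. No difference between the members and their neighbours was tested. The neighbours are named because of their position.

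**Figure D3:**
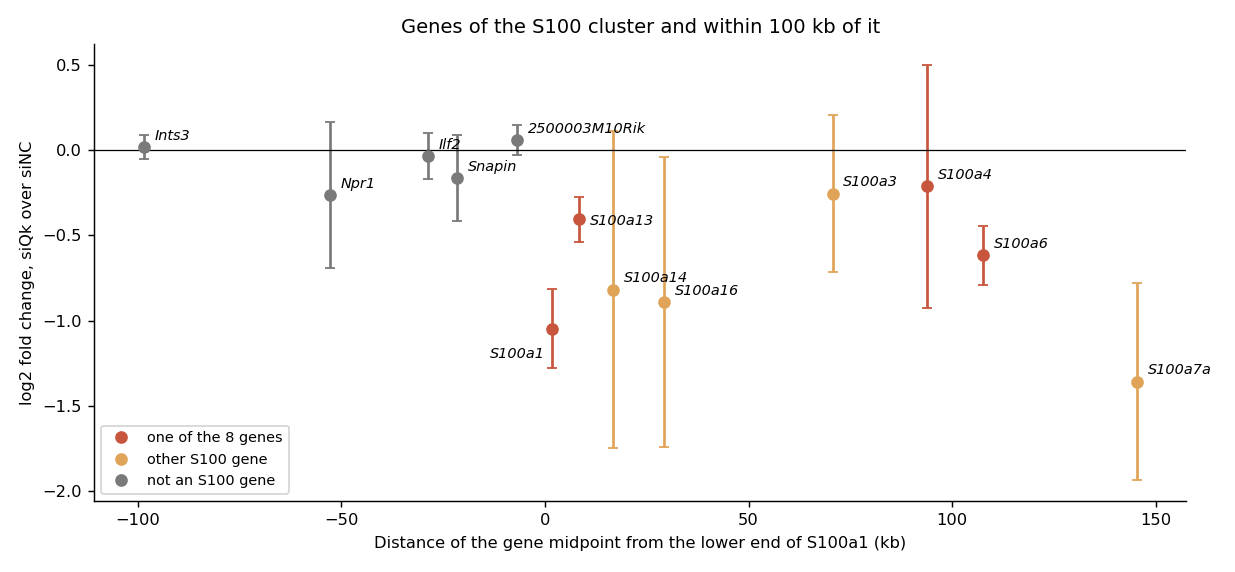
Log2 fold change of siQk over siNC (vertical axis, bars for the SE) against distance along the chromosome from the lower end of S100a1 in kb, for genes above the filter in the S100 cluster and within 100 kb of it. The 4 genes of the set in the cluster (red) and the 4 other S100 genes (yellow) lie below 0, with wide bars for S100a4, S100a14, S100a16, S100a7a and S100a3. The 5 genes outside the family (grey) lie between -0.26 and 0.06, a range that also holds S100a4 and S100a3. Some genes of the set were chosen on this contrast, and the filter favours the sign of S100a7a and S100a16, so these signs are not support.

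Among the binding partners, Anxa2, the annexin that S100a10 dimers join into a tetramer, had 57.5, 65.1 and 60.5 RPKM in siNC and 52.2, 137 and 39.6 RPKM in siQk. It was highest in siQk replicate 2 and its groups overlapped. The ratio of S100a10 to Anxa2 was 2.51 to 4.89 in siNC and 1.42 to 4.86 in siQk. Of 12 annexins 8 were tested, 3 lower and 5 higher, with a median log2 fold change of 0.04. Anxa5, the most abundant, had a log2 fold change of 0.24 (SE 0.28), which turned to -0.06 without siQk replicate 2. Anxa7 (0.39, SE 0.29) and Anxa9 (-0.23, SE 0.12) had smaller p but were not called.

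Among 22 S100 partners and receptors, 18 were tested, 10 lower and 8 higher, with a median of -0.05 and none called. Ahnak, the giant scaffold bound by S100a10, had 5.82, 13.97 and 7.61 RPKM in siNC and 4.77, 9.04 and 4.82 RPKM in siQk, a log2 fold change of -0.58 (SE 0.47) that was -0.17 without siNC replicate 2 and -0.95 without siQk replicate 2. Cacybp, named for binding calcyclin, the product of S100a6, was abundant, at 274 to 345 RPKM in siNC and 225 to 324 RPKM in siQk, a log2 fold change of -0.13 (SE 0.21). Myh9, the nonmuscle myosin heavy chain bound by S100a4, had a log2 fold change of -0.08 (SE 0.11). Syt1, the synaptotagmin found with S100a13 in export complexes, had 0.37 (SE 0.30), and the ryanodine receptor gene Ryr1, at under 0.6 RPKM, had 0.40 (SE 0.23). The groups overlapped for all 5.

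Of 13 listed relatives and partners of tescalcin 9 were tested, 3 lower and 6 higher, with a median of 0.05 and none called. Chp1, a close relative of tescalcin, listed under the older symbol 1500003O03Rik, had 29.1 to 37.2 RPKM in siNC and 32.5 to 40.6 RPKM in siQk, a log2 fold change of 0.11 (SE 0.12). The largest fold change of the list was that of Ppp3cc, a catalytic subunit of calcineurin, at -0.42 (SE 0.28), followed by Cib2 at 0.37 (SE 0.25).

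Other EF-hand proteins served as a wider comparison. Of 47 sensors and buffers 34 were tested, 13 lower and 21 higher, with a median of 0.02 and none called. In 1 of them siQk lay below all siNC libraries and in 4 above, where 3.49% and 5.35% of all genes did so. The gene below was that of the mitochondrial uniporter regulator Micu2, listed as Efha1, at -0.35 (SE 0.20). Nucb2, the precursor of nesfatin, had 20.5, 21.0 and 21.4 RPKM in siNC and 30.6, 68.8 and 30.2 RPKM in siQk. Its log2 fold change of 1.01 (SE 0.39) had an unadjusted p under 0.05 and an adjusted p of 0.9996 (edgeR quasi-likelihood), and it was 0.51 without siQk replicate 2. Calm2, a calmodulin gene and the most abundant of the list by its mean over the 6 libraries, had 375 to 422 RPKM in siNC and 460 to 481 RPKM in siQk, a log2 fold change of 0.21 (SE 0.05).

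**Figure D4:**
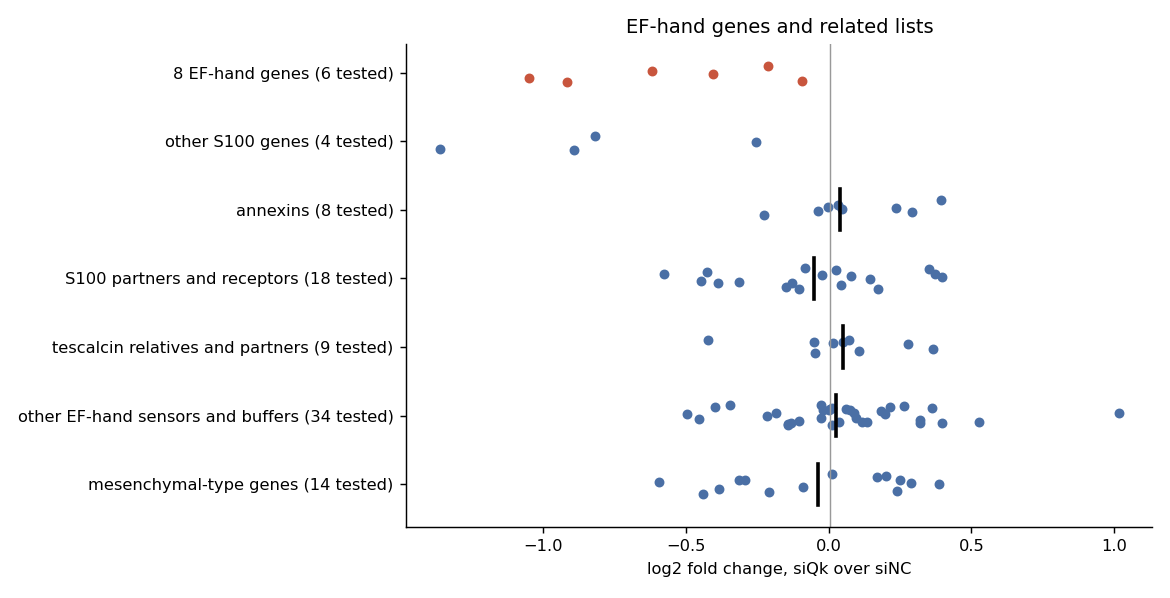
Log2 fold change of siQk over siNC for each tested gene of the 8 (red) and of 6 related lists (blue), with the median of all genes as a grey line and, for the 5 lists other than the S100 genes, the median as a black bar. The 5 medians lie between -0.05 and 0.05, and the 2 upper rows have none, since some of the 8 genes were chosen on this contrast and S100a7a and S100a16 passed the filter through siNC.

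Several S100 genes are often followed as markers of mesenchymal or motile cells, so genes of that kind were examined too. Of 22 listed 14 were tested, 7 lower and 7 higher, with a median of -0.04 and none called. The galectin gene Lgals1 had 1556, 781 and 565 RPKM in siNC and 927, 792 and 824 RPKM in siQk, and siNC replicate 1 was high here as it was for S100a6, S100a10 and S100a4. Vim and Cd9 were the next in level, at log2 fold changes of 0.20 (SE 0.55) and -0.29 (SE 0.25). Fn1 was at 0.39 (SE 0.17), Tpm1 at -0.31 (SE 0.15) and Thy1 at -0.59 (SE 0.58). Without siQk replicate 2 Fn1 was at 0.24, Tpm1 at -0.21 and Thy1 at -0.25, and Thy1 was at -0.96 without siQk replicate 1. Cav1 had no count in any library. The markers of fibroblasts summed to 3.20 to 5.55 RPKM in siNC and 4.18 to 5.65 RPKM in siQk with Lum at 0, and those of myeloid cells to 0.634 to 1.18 RPKM and 0.471 to 1.06 RPKM with Mpo at 0. Those of oligodendrocytes and Schwann cells summed to 3.29 to 3.78 RPKM in siNC and 1.80 to 3.03 RPKM in siQk, and their part in the results was not tested.

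The genes whose pattern over the 6 libraries was most like that of Tesc and of S100a6 were found by Pearson's r on TMM-scaled log2 CPM. The points share libraries and 2 groups, so r is a description. For Tesc they were Gak (r = 0.988), the kinesin gene Kif3c (0.987), Agap1 (0.987), 2310009A05Rik (0.982) and Slc9a9 (0.981), a sodium/proton exchanger of endosomes. Slc9a9 had 1.75, 1.58 and 1.64 RPKM in siNC and 1.04, 0.759 and 0.926 RPKM in siQk, a log2 fold change of -0.90 (SE 0.14). For S100a6 they were the glutathione transferase gene Gstp1 (0.996), the moesin gene Msn (0.987), Clk3 (0.984), A330023F24Rik (0.982) and Rnf166 (0.981). Gstp1 had 173, 158 and 152 RPKM in siNC and 141, 122 and 137 RPKM in siQk. Of the 12665 genes tested, 125 had r over 0.9 with Tesc and 127 with S100a6. Tesc and S100a6 had r = 0.945 with each other, whereas Tesc had r = 0.901 with S100a1, 0.705 with S100a13, 0.431 with S100a4 and 0.108 with S100a10.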

How the data were processed

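Poly-A RNA of 6 NSC-34 libraries, 3 siNC and 3 siQk, was sequenced as 75-base pairs with a kit that does not mark strand. The authors mapped the reads with OLego to mm10 and summarised them per gene with Quantas. They deposited for each library expected counts (21.8% to 22.9% of the values are not whole), exon lengths and RPKM per gene, for 23038 genes. RPKM recomputed from the counts and lengths matched within a relative difference of 1.1e-14.

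The expected counts were rounded and scaled by TMM (factors 0.956 to 1.02), and 12665 genes with a mean log2 CPM above 0 were fitted in R 4.3.3 with the quasi-likelihood test of edgeR 4.0.16, after a test on simulated data. A call needed p under 0.01 and, after Benjamini-Hochberg adjustment over all tested genes, under 0.1. The SE of a fold change is that of the difference of group means of log2 CPM (prior count 2). Groups follow the sample titles. The members, lists and tests were chosen with earlier results of these data known. Named genes are Qk, the 8 genes, known binding partners, neighbours, in each list up to 3 genes with the smallest p and 3 with the highest level, and the 5 genes most like Tesc and S100a6. The marker genes named and Cav1 were singled out after their values were seen. Older symbols were matched by Entrez number for 5 genes. Coordinates are from GENCODE for GRCm38, since the deposited files hold none. Alternatives were DESeq2 1.42.0, the exact and likelihood-ratio tests of edgeR (the latter added after seeing the data), other scalings and filters, a replicate block and leaving out each library. Some items are not reported here.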

Additional observations from a re-analysis of the deposited data

How the results depend on the processing

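The log2 fold changes of Tesc, S100a1, S100a6 and S100a13 were negative under all 14 alternatives, from -1.01 to -0.76, -1.19 to -0.82, -0.70 to -0.49 and -0.49 to -0.31, and these extremes came from leaving out 1 library. Because the groups did not overlap for these genes, leaving out 1 library could hardly turn their sign. The kept sign is therefore no separate evidence. S100a4 ran from -0.51 to 0.34 and S100a10 from -0.25 to 0.20. The median of the 6 tested genes ran from -0.59 to -0.43, a description only, since some of them were chosen on this contrast. The count of genes called was 19 with DESeq2 (16 lower, 3 higher, of which 2 were members, Tesc and S100a1, and 1 further gene had an adjusted p of NA) and 5 with the edgeR exact test and with the likelihood-ratio test, all 5 lower. Leaving out 1 library gave 0 to 1 genes called, all lower, and 0 without siNC replicate 1, where the Qk log2 fold change was -3.09. Genes at an unadjusted p under 0.05 numbered 589 with no filter and 562 without siNC replicate 3. The median of the other S100 genes, -0.85 and favoured by the filter for S100a7a and S100a16, was -1.36 without siQk replicate 1 and -0.38 without siQk replicate 2. That of tescalcin relatives and partners, 0.05, was -0.028 without siQk replicate 2 and 0.12 without siQk replicate 1. Leaving out 1 library moved the median log2 fold change from -0.11 to 0.22 for annexins, from -0.11 to 0.015 for S100 partners and receptors, from -0.014 to 0.077 for other EF-hand genes and from -0.20 to 0.25 for mesenchymal-type genes, each highest without siNC replicate 1, and Anxa5 ran from -0.061 (without siQk replicate 2) to 0.37. Among uncalled genes, fold changes also moved by over 1.5 times for Anxa7 (0.18 without siNC replicate 2, 0.62 without siNC replicate 1), Anxa9 (-0.14 without siQk replicate 3), Syt1 (0.17 without siNC replicate 3, 0.66 without siNC replicate 2), Ryr1 (0.23 without siQk replicate 3), Ppp3cc (-0.22 without siQk replicate 2), Cib2 (0.21 without siNC replicate 3, 0.61 without siNC replicate 1) and Efha1 (-0.18 without siQk replicate 2). The causes were not tested. Of the 5 genes most like Tesc and S100a6, 3 and 2 were also among the 5 on log2(RPKM + 0.1). Scaling to total counts put the median of all genes at 0.028 in place of 0.0034.

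The groups share replicate numbers, but deviations of same-numbered libraries correlated at 0.213, 0.018 and -0.169, and the libraries were therefore treated as unpaired. With a replicate block 1 gene, Qk, was called, the median of the tested members was -0.51 and no call changed. S100b was below the expression filter and was not fitted, and S100a11 had 0 counts.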
